A study of Mus musculus with 8 samples.

Results

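The kinesin genes of the mouse were examined for H3K27 acetylation (H3K27ac) in Oli-neu, an immortalised mouse line used as a model of oligodendrocyte progenitors, while the cells proliferated and while they differentiated. Members were the protein-coding genes whose symbol is Kif or Klc followed by a digit, which gave 43 of the 21951 protein-coding genes of the GENCODE annotation on GRCm38/mm10. By the known role of their products they comprised 12 mitotic motors, 13 transport motors, 4 light chains, 6 genes tied to cilia or Hedgehog signalling and 8 others. Transport motors and light chains together are called the 17 transport kinesins. Kif1bp met the naming rule, although its product binds kinesins and is not a motor.

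The 2 chromatin samples came from Oli-neu cells labelled as embryonic oligodendrocyte progenitors of strain C57BL/6, immunoprecipitated with an antibody against H3K27ac. Proliferating cells were kept in DMEM with N2 supplement, T3, L-thyroxine, bFGF at 10 ng/ml and Pdgf-BB at 1 ng/ml. Differentiating cells, which the labels call controls, were without growth factors for 1 day by the labels (the study's methods give a longer time), with PD174265, an inhibitor of erb receptor signalling, at 1 μM. There was 1 library per state, so no difference between the states has a replicate check and no test was made, and 1 immortalised line stands for all oligodendrocyte progenitors.

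Kinesins are motor proteins that use ATP to walk along microtubules, or in a few families to take microtubules apart at their ends. Mitotic kinesins build the spindle, move chromosomes and complete cell division, whereas transport kinesins carry vesicles, mitochondria and RNA, usually away from the cell centre. In oligodendrocytes, kinesin transport brings Mbp mRNA into the processes that form myelin. H3K27ac marks the histones of promoters and enhancers in use, and a peak is a stretch of genome where immunoprecipitated reads exceeded the background expected by the peak caller. Many genes of cell division carry in their promoter a CHR, a short element read TTTGAA through which the DREAM and MuvB complexes act, often near CCAAT boxes.

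Promoter sequence is shown for Kif18a and Kif18b, whose promoter peaks were the strongest of the mitotic members after Kif20a, and for Kif13a and Kif3b, the strongest of the transport members. Each is the part of the RefSeq promoter (GRCm38.p6) that lies before both the RefSeq and the GENCODE start. Letters in capitals match the CCAAT box, the GC box written as GGGCGG, or the E2F type element written as TTTNGCGC, on either strand.
Kif18a, chr2:109280488-109280737, plus strand: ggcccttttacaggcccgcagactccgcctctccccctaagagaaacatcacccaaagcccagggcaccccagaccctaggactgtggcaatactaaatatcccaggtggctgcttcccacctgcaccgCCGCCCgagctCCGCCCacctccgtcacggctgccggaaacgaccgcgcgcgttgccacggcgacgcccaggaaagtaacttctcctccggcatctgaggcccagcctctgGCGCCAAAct
Kif18b, chr11:102925125-102925374, minus strand: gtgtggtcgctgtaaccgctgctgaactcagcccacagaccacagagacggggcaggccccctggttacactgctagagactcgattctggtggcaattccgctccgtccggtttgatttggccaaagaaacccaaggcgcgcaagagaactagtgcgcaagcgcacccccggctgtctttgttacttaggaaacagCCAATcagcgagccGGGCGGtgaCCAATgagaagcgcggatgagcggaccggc
Kif13a, chr13:46929868-46929968, minus strand: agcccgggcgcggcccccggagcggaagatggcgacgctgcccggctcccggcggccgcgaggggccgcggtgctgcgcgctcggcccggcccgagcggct
Kif3b, chr2:153291166-153291412, plus strand: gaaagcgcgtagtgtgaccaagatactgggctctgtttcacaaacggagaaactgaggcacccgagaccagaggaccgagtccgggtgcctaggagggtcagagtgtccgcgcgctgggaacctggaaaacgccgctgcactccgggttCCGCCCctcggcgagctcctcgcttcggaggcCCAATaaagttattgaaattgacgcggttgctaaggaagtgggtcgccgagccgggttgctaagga
The Kif18a stretch held a pair of GC boxes and the E2F type element next to the start, and the Kif18b stretch held a pair of CCAAT boxes on either side of a GC box. In Kif3b there was 1 GC box and 1 CCAAT box, whereas the short Kif13a stretch, almost all G and C, held none of these letters. The rest of the Kif13a RefSeq promoter, not shown, held 2 GC boxes.

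The CHR letters lay near the RefSeq start of 7 mitotic kinesin genes, and these sites are shown because they are what most mitotic promoters had and no transport promoter with a sequence had. Capitals mark TTTGAA, or TTCAAA where the match is on the other strand, and Kif20b held the letters in 2 adjoining copies.
Kif11, chr19:37376353-37376378, plus strand: gtctccatttTTCAAAattgaggcgc
Kif15, chr9:122951052-122951077, plus strand: gggcgccaaaTTCAAAtctgcggcca
Kif18b, chr11:102925106-102925131, minus strand: gaccggctagTTTGAAcgcgccgcgc
Kif20b, chr19:34922355-34922380, plus strand: gccgccattgTTTGAATTTGAAaacc
Kif4, chrX:100626074-100626099, plus strand: ctgggatcaaTTTGAAacttggcggt
Kif22, chr7:127042422-127042447, minus strand: gccccggtaaTTCAAAagagagaagc
Kif23, chr9:61946782-61946807, minus strand: gattggcctgTTTGAAatgcgccggg
In the 300-base RefSeq windows, which run from 250 bases before to 50 after the start, TTTGAA was found in 9 of 11 mitotic promoters (81.8%), in 0 of 13 transport promoters and in 15.8% of the 16903 protein-coding promoters with a sequence. It was also found in 1 of 5 cilium or Hedgehog promoters (20%, Kif27) and in 1 of 6 others (16.7%, Kif26b). Within 30 bases of the start it was found in 7 of 11 mitotic promoters (63.6%) and in Kif26b, against 409 of all promoters (2.42%). The matches of Kif14 and Kif2c were farther off, at -228 and -103 bases, and their RefSeq starts lay 1505 and 3867 bp downstream of the GENCODE starts. The promoters of Kif18a, a motor that aligns chromosomes, and of Kif2b, a microtubule depolymerase, held no TTTGAA in this window.

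The other motifs separated the groups less. A CCAAT box was found in 7 of 11 mitotic promoters (63.6%), in 5 of 13 transport promoters (38.5%) and in 39.1% of all promoters. GC boxes were in 11 of 13 transport promoters (84.6%), in 6 of 11 mitotic promoters (54.5%) and in 48.0% of all, and the median GC content was 68% in transport and 59.7% in mitotic windows against 56.7% over all. TTTNGCGC occurred in the windows of Kif15 and Kif18a, which made 18.2% of the mitotic promoters, against 0 of 13 transport promoters and 1.79% of all. All motifs were searched on both strands, and the only overlap between motifs among the members was 2 bases of a CCAAT and a GC box in Kif3a. A match describes letters and not a bound site.

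**Figure D1:**
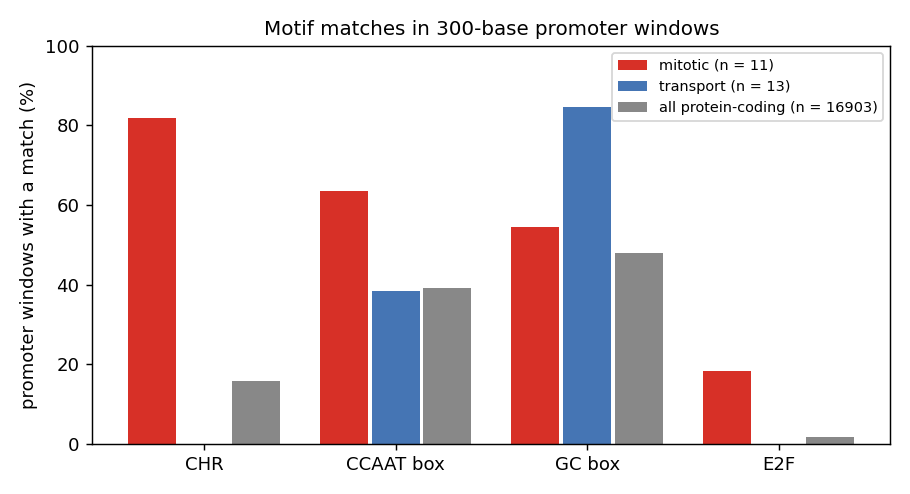
Share of promoter windows (%, vertical axis) with at least 1 match of each motif named on the horizontal axis in mitotic kinesins (red), transport kinesins (blue) and all protein-coding genes (grey). The CHR bar reaches 81.8% in mitotic kinesins and is absent in transport kinesins, and the GC box bar is highest, at 84.6%, in transport kinesins.

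To ask which kinesin genes carried the mark at their promoter, peaks were sought around the transcription start site (TSS), in a region that began 3000 bp before it and ended 100 bp after it, and any shared base counted. Of the 43 kinesin genes, 14 (32.6%, 95% exact interval 19.1 to 48.5%) were marked at the promoter in proliferating cells, against 23.7 percent of all protein-coding genes. In the differentiating list 20 (46.5%, 31.2 to 62.3%) had one, against 27.7 percent of all. In either list there were 24 (55.8%, 39.9 to 70.9%), against 33.8 percent, and in both there were 10 (23.3%), against 17.6 percent. Intervals cover counting error only. They treat the genes as independent, and no test between gene lists was made. Since no read counts come with the peaks, the depth per peak is unknown. The study's methods give more uniquely mapped reads for the differentiating than for the proliferating library. The part of this in the counts was not tested, and a missing peak means only that none was called at the depth of its library.

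With any shared base counted, mitotic and transport kinesins had nearly the same share of marked promoters in either list. Of the 12 mitotic genes 7 (58.3%, 27.7 to 84.8%) had a promoter peak in either list, and of the 17 transport genes 10 (58.8%, 32.9 to 81.6%). In the proliferating list the shares were 5 of 12 (41.7%, 15.2 to 72.3%) and 5 of 17 (29.4%, 10.3 to 56.0%). In the differentiating list they were 6 of 12 (50%, 21.1 to 78.9%) and 8 of 17 (47.1%, 23.0 to 72.2%). The intervals are wide with these numbers of genes and overlap in each list, and a difference between the groups was not tested. The near-equal shares depended on the overlap asked for. With at least 0.5 of the peak inside the region, 6 of 12 mitotic (50%) and 4 of 17 transport genes (23.5%) were marked in either list, against 21.9% of all genes. Within 1000 bp on both sides of the TSS, 8 of 12 (66.7%) and 12 of 17 (70.6%) were, against 36.4%.

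**Figure D2:**
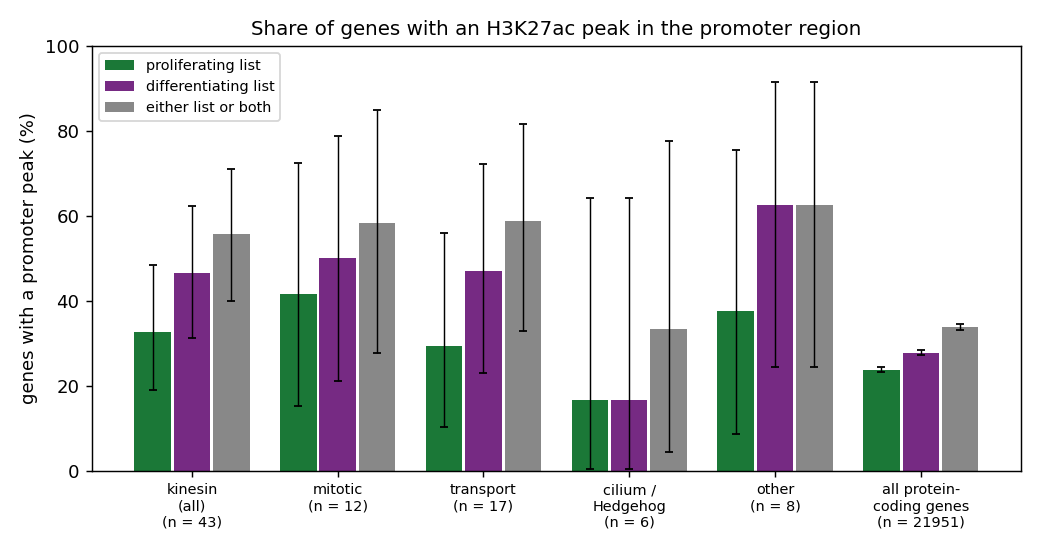
Share of genes with an H3K27ac peak in the promoter region (%, vertical axis) in the proliferating list (green), the differentiating list (purple) and either list (grey), with 95% exact intervals as error bars. Mitotic and transport kinesins stand at 58.3% and 58.8% in either list, against 33.8 percent of all protein-coding genes.

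Each list also held promoters that the other did not. In the proliferating list alone stood 4 kinesin genes (Kif15, Kif1c, Kif3b and Kif24), where 6.13 percent of all genes were so placed. In the differentiating list alone stood 10 (Kif20b, Kif2c, Kif1a, Kif3a, Kif3c, Kif5a, Klc2, Kif9, Kif1bp and Kif26b), where 10.1 percent of all genes were. The 10 genes in both lists were Kif11, Kif18a, Kif18b, Kif20a, Kif13a, Kif1b, Klc1, Kif2a, Kif21a and Kif21b, and in all 10 the peaks of the lists overlapped. Membership of 1 list rests on a threshold: 2 of the 14 genes of a single list, Kif1a and Kif3c, had a peak of the other list within 1000 bp of the TSS. The Kif5a peak too was overlapped by a proliferating peak, which began 3019 bp upstream of the TSS, just outside the region.

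Among the mitotic genes, the strongest promoter peaks were those of Kif20a, a motor of cytokinesis that brings the chromosomal passenger complex to the central spindle. At the Kif20a promoter fold enrichment over background was 4.22 in proliferating and 4.53 in differentiating cells, and −log10 q was 4.07 and 5.83. These stood at the 92.3 and 96.1 percentile of all peaks of their list by −log10 q, the measure of strength used from here on. Both peaks also held the TSS of Brd8, so the mark cannot be assigned to either gene.

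Kif18a and Kif18b, the motors of spindle length and chromosome alignment, were marked in both lists. The Kif18a peak was chr2:109280606-109281138 in proliferating cells (fold 4.33, percentile 88.4) and chr2:109280297-109281548 in differentiating cells (fold 3.21, percentile 69.3). Both covered the E2F type element next to the Kif18a start, and both held the TSS of Mettl15. The Kif18b peak was chr11:102924029-102925922 in proliferating cells (fold 3.26, percentile 71.4) and the narrower chr11:102924939-102925589 in differentiating cells (fold 3.45, percentile 81.2), and it covered the CHR letters of that gene in both.

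Kif11, the motor that slides spindle poles apart, was marked across the TSS in both states. Its peak was chr19:37375629-37376789 in proliferating cells (fold 3.19, percentile 36.2) and chr19:37375905-37376818 in differentiating cells (fold 3.31, percentile 62.7), with 885 bp shared. Kif15, which helps Kif11 to keep the spindle bipolar, had a peak only in the proliferating list, chr9:122950453-122950797 (fold 4.00, percentile 81.2). It ended before the Kif15 TSS, and the TSS nearest to its centre was that of 1110059G10Rik, 375 bp away.

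Kif20b and Kif2c had narrow peaks in the differentiating list alone, both of 279 bp, the smallest width of that list. Kif20b acts in the last step of cell separation, and its peak was chr19:34922034-34922312 (fold 3.14, percentile 40.1). Kif2c depolymerises microtubules at centromeres, and its peak was chr4:117182715-117182993 (fold 3.00, percentile 21.2). Neither peak reached the TSS.

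Kif14, which acts at the midbody, had no peak in the promoter region but 1 starting 164 bp downstream of the TSS in differentiating cells (chr1:136466507-136466820, fold 3.81, −log10 q 3.66). Its nearest proliferating peak was 9392 bp away. The remaining mitotic genes without a promoter peak were Kif22 and Kif4, which bind chromosomes, Kif23, the motor of centralspindlin, and Kif2b. Of these Kif4, Kif22 and Kif23 had CHR letters near the start, so the letters were found in promoters with and without a peak.

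**Figure D3:**
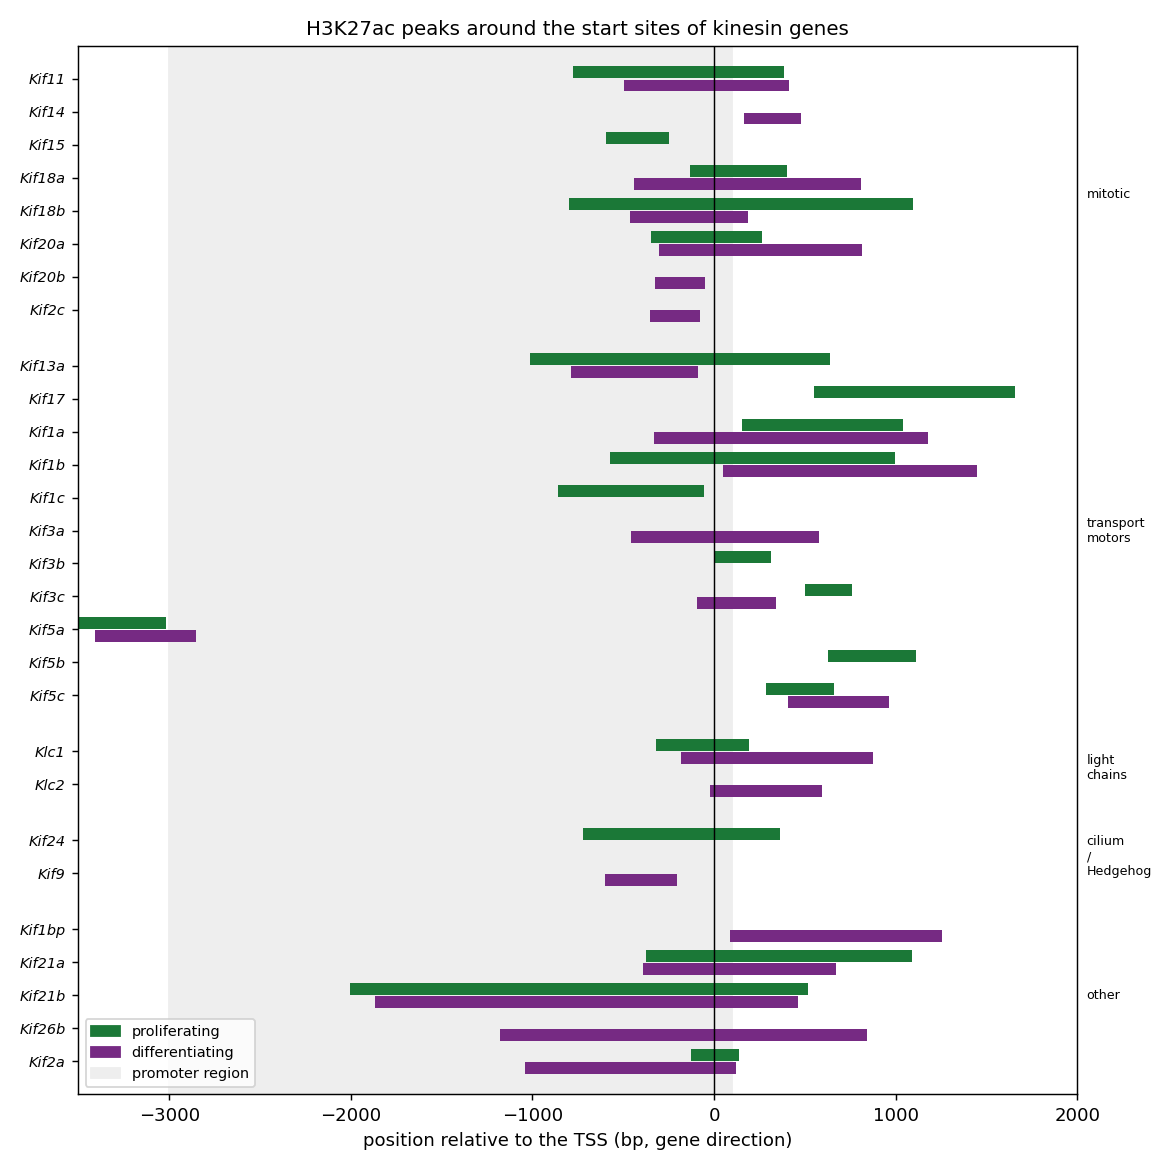
H3K27ac peaks of the proliferating (green) and differentiating (purple) list around the TSS of the 28 kinesin genes with a peak in the promoter region or within 3000 bp of the TSS. The horizontal axis gives the distance from the TSS in bp in the direction of the gene, and grey shading marks the promoter region; the peaks of Kif5a lie at its far upstream edge, and those of Kif5b, Kif5c and Kif17 lie downstream of it.

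Among the transport motors, the strongest promoter peak in differentiating cells was that of Kif13a, which moves recycling endosomes and receptors to the cell surface. In proliferating cells the Kif13a peak was chr13:46929227-46930880 (fold 3.58, −log10 q 2.26, percentile 65.0), and in differentiating cells the narrower chr13:46929957-46930657 (fold 4.74, −log10 q 6.70, percentile 97.4) lay wholly within it. Kif1b, the carrier of mitochondria and synaptic vesicle precursors and in zebrafish of Mbp mRNA, was also marked in both lists. At Kif1b the peaks were chr4:149306698-149308264 (fold 3.34, percentile 61.1) and chr4:149306248-149307642 (fold 3.41, percentile 81.4), sharing 945 bp.

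The kinesin-2 genes, whose products drive transport into cilia and along axons, were split between the lists. Kif3b had the strongest promoter peak of any kinesin gene in proliferating cells, chr2:153291413-153291726 (fold 5.24, −log10 q 5.62, percentile 96.8), which began at the TSS and ran into the gene. In differentiating cells the nearest peak to the Kif3b TSS was 18894 bp away. Its partner Kif3a had a peak over the TSS in the differentiating list alone, chr11:53566920-53567956 (fold 3.35, percentile 62.0). Kif3c had 1 over the TSS in the differentiating list (chr12:3365036-3365474, fold 3.16, percentile 40.3), while in the proliferating list a peak of fold 3.46 began 498 bp downstream.

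Kif1a and Kif1c, of the same family as Kif1b, were each in 1 list. The Kif1a peak of differentiating cells, chr1:93100774-93102284 (fold 2.82, −log10 q 1.82, percentile 46.6), covered the TSS. In proliferating cells a stronger peak (fold 4.03, −log10 q 4.06) began 155 bp downstream of the Kif1a TSS and lay wholly within the stretch marked in differentiating cells, so the gene was marked near its start in both states. Kif1c, which moves dense-core vesicles and integrins, had a peak in proliferating cells, chr11:70699686-70700495 (fold 3.78, percentile 82.7), that also held the TSS of Inca1.

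Around the gene TSS, the 3 heavy chains of conventional kinesin, Kif5a, Kif5b and Kif5c, were not marked within the promoter region except through a neighbour. For Kif5a the peak of differentiating cells, chr10:127266199-127266758 (fold 3.92, percentile 84.8), lay on the TSS of Dctn2, a dynactin subunit. Its proliferating counterpart (fold 4.86, −log10 q 5.56) began 3019 bp upstream of the Kif5a TSS, just outside the region. The Kif5b peak of proliferating cells began 626 bp downstream of the TSS (chr18:6241064-6241548, fold 5.03, −log10 q 5.16). At Kif5c peaks began 285 bp downstream in proliferating and 407 bp downstream in differentiating cells (fold 3.22 and 2.91). With the TSS of every protein-coding transcript used, Kif5b and Kif5c were marked in proliferating but not in differentiating cells. In proliferating cells 8 of 17 transport genes (47.1%) were then marked, against 28.9% of all genes. Kif17, a motor of dendrites and cilia, had a proliferating peak 549 bp downstream (fold 3.09), and the remaining transport motors, Kif13b and Kif16b, had none within 3000 bp of the TSS.

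These downstream peaks set the proliferating count of the transport group. With peaks sought within 1000 bp on both sides of the TSS, 10 of 17 transport genes were marked in proliferating and 8 of 17 in differentiating cells, against 5 of 12 and 7 of 12 mitotic genes. The order of the states was thus turned in the transport group and kept in the mitotic group. Over all 43 kinesin genes the counts with this region were 19 and 21, against 26.9 and 31.1 percent of all genes, and 27 in either list, against 36.4 percent. In both lists there were 13, against 21.6 percent, in the proliferating list alone 6, against 5.28 percent, and in the differentiating list alone 8, against 9.54 percent.

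Of the 4 light chains, which couple conventional kinesin to its cargo, Klc1 was marked in both lists. The Klc1 peaks were chr12:111758527-111759043 in proliferating cells (fold 3.52, percentile 69.3) and chr12:111758667-111759725 in differentiating cells (fold 3.55, percentile 76.8). Klc2 had a weaker peak in the differentiating list alone, chr19:5117968-5118580 (fold 3.05, percentile 28.1). Klc3 had no peak within 14485 bp of its TSS in proliferating or within 14457 bp in differentiating cells, and for Klc4 the distances were 9070 and 3933 bp.

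Of the 6 genes tied to cilia or Hedgehog signalling, 1 was marked in each list (16.7%, against 23.7 and 27.7 percent of all genes), and both peaks stood below the median of their list. Kif24, which restrains cilium formation at the centriole, had a proliferating peak, chr4:41464524-41465609 (fold 2.84, percentile 2.99), that also held the TSS of Nudt2. Kif9 had a differentiating peak, chr9:110476355-110476752 (fold 3.00, percentile 34.3), that held the TSS of Klhl18 and not its own. Kif6, Kif7, a regulator of Hedgehog signalling, Kif19a and Kif27 had no promoter peak.

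Of the 8 other genes, 3 were marked in proliferating cells, against 23.7 percent of all genes, and 5 in differentiating cells, against 27.7 percent. Kif21a and Kif21b, which restrain microtubule growth, had broad peaks in both lists. At Kif21a they were chr15:91048857-91050323 (fold 3.56, −log10 q 3.77) and chr15:91049276-91050337 (fold 3.16, −log10 q 4.17). At Kif21b they were chr1:136129383-136131908 (fold 2.92, percentile 94.2) and chr1:136129523-136131853 (fold 2.49, percentile 70.6), the widest of all kinesin promoter peaks at 2526 and 2331 bp.

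Kif2a, a microtubule depolymerase of spindles and growing axons, had a peak of 263 bp in proliferating cells (chr13:107021990-107022252, fold 4.36, percentile 88.6) and of 1158 bp in differentiating cells (chr13:107022008-107023165, fold 3.58, percentile 71.5). Kif26b, an atypical kinesin of Wnt5a signalling, and Kif1bp were in the differentiating list alone. Their peaks were chr1:178527948-178529969 (fold 2.95, percentile 48.9) and chr10:62577202-62578367 (fold 2.58, percentile 3.02). Kif12, Kif26a and Kif28 had none.

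By median percentile, kinesin promoter peaks stood above those of all genes in proliferating cells and below them in differentiating cells. The median percentile was 82.0 in proliferating and 66.0 in differentiating cells, against 77.6 and 76.9 for all genes with a promoter peak. By median fold enrichment they stood below all genes in both, at 3.57 and 3.18 against 3.62 and 3.42. Mitotic genes had median percentiles of 81.2 and 66.0, and transport genes 69.3 and 69.4. Peaks with −log10 q of 5 or more stood at 1 kinesin promoter in proliferating cells (Kif3b), or 2.33% against 3.27% of all genes. In differentiating cells they stood at 2 (Kif13a and Kif20a), or 4.65% against 4.25% of all genes. Of the 10 genes in both lists, 7 stood at a higher percentile in differentiating and 3 (Kif18a, Kif2a and Kif21b) in proliferating cells, and with 1 library per state these shifts could not be tested.

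**Figure D4:**
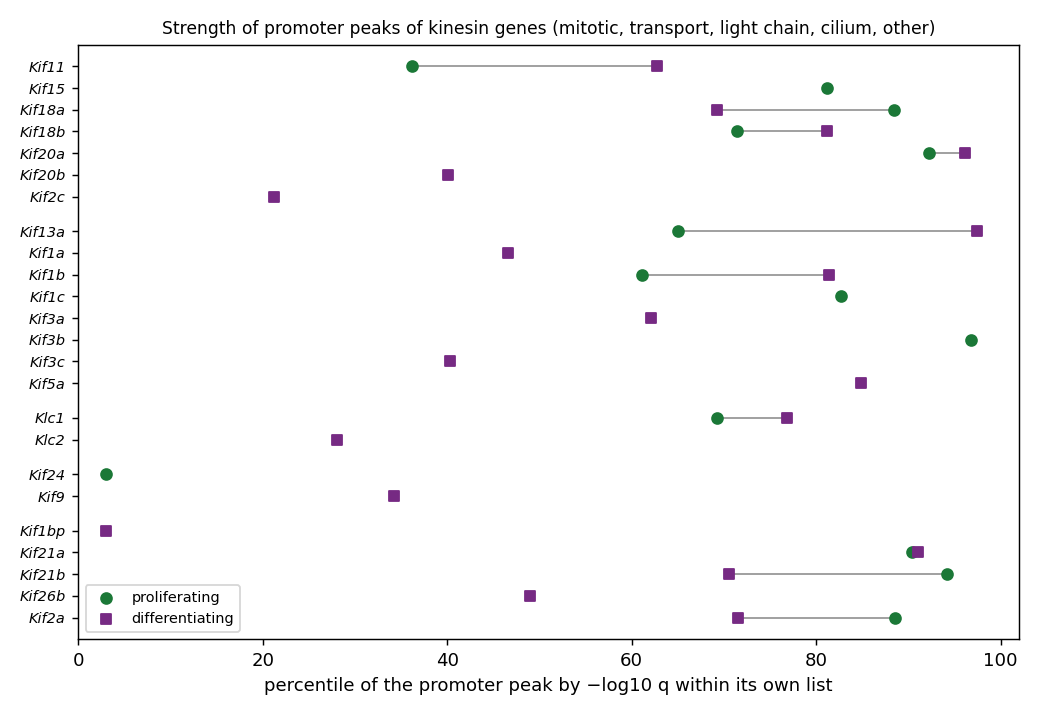
Percentile of each kinesin promoter peak by −log10 q within its own list (horizontal axis, 0 to 100) in proliferating (green circles) and differentiating (purple squares) cells, with a line joining the values of genes in both lists. Kif13a shows the widest gap, from 65.0 to 97.4, and Kif24 and Kif1bp stand lowest, near 3.

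Promoter peaks were not always those of the kinesin gene alone. The peak covered the TSS in 12 of 14 genes in proliferating and 13 of 20 in differentiating cells, against 67.2% and 73.4% of all genes with a promoter peak. The kinesin TSS was the nearest to the peak centre in 9 of 14 and 17 of 20, against 4431 of 5212 and 5201 of 6085 of all genes. In 6 of the 24 genes (25%) the peak held the TSS of another protein-coding gene, which was so for 20.6% of all genes with a promoter peak. These were Kif18a, Kif20a, Kif1c, Kif5a, Kif24 and Kif9. Counting only peaks nearest to the own TSS left 18 of 43 kinesin genes (41.9%) in either list, against 6581 of all 21951 genes, and 9 (20.9%) in proliferating cells, against 20.2%.

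Of the 19 kinesin genes without a promoter peak, 15 had no peak within 3000 bp of the TSS in either list. Their nearest peaks were 7010 to 445952 bp away in proliferating and 3278 to 351387 bp away in differentiating cells.

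Over gene bodies, from TSS to gene end, 29 of 43 kinesin genes had a peak in proliferating cells, against 41.9 percent of all genes, and 32 in differentiating cells, against 43.5 percent. In either list there were 34 (79.1%), against 52.5 percent of all, and in both lists 27, against 32.9 percent. In the proliferating list alone there were 2, against 9 percent, and in the differentiating list alone 5, against 10.6 percent. A promoter peak over the TSS, found in 12 kinesin genes in proliferating and 13 in differentiating cells, counted as a body peak too. Kinesin genes were long, with a median of 46.6 kb against 17.4 kb for all genes, and the share with a body peak rose with length over all genes, from 25.5% in the shortest to 79.9% in the longest of 4 length classes with equal numbers of genes. In the longest class, above 45.1 kb, 20 of 23 kinesin genes had a body peak, and in the next class 10 of 13, where all genes had 61.1%.

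Per length, the kinesin genes held 57 peaks in proliferating and 74 in differentiating cells, or 1.80 and 2.34 per 100 kb, against 1.65 and 1.70 for all genes. Mitotic genes held 1.62 and 2.84 per 100 kb, from 8 and 14 peaks, and transport genes 1.47 and 1.98, from 20 and 27 peaks. Of the kinesin body peaks, 30 in proliferating and 42 in differentiating cells lay wholly in introns. A counterpart in the other list was found for 19 of the 57 and 18 of the 74 kinesin body peaks, against 37.6% and 36.8% of the peaks over all protein-coding genes.

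The genes with the most body peaks were Kif26b, Kif21a, Kif5c, Kif21b and Kif14. Kif26b, the longest at 410 kb, held 6 peaks in proliferating and 13 in differentiating cells, none of which overlapped a peak of the other list. Kif21a held 8 and 6 over 117 kb, with 3 in each list overlapping the other. Kif5c, a heavy chain abundant in neurons, held 6 and 7 over 155 kb and had no peak in the promoter region. The nearest of its body peaks began 285 bp downstream of the TSS in proliferating and 407 bp in differentiating cells. Kif21b held 4 and 3, and Kif14 held 2 and 4.

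**Figure D5:**
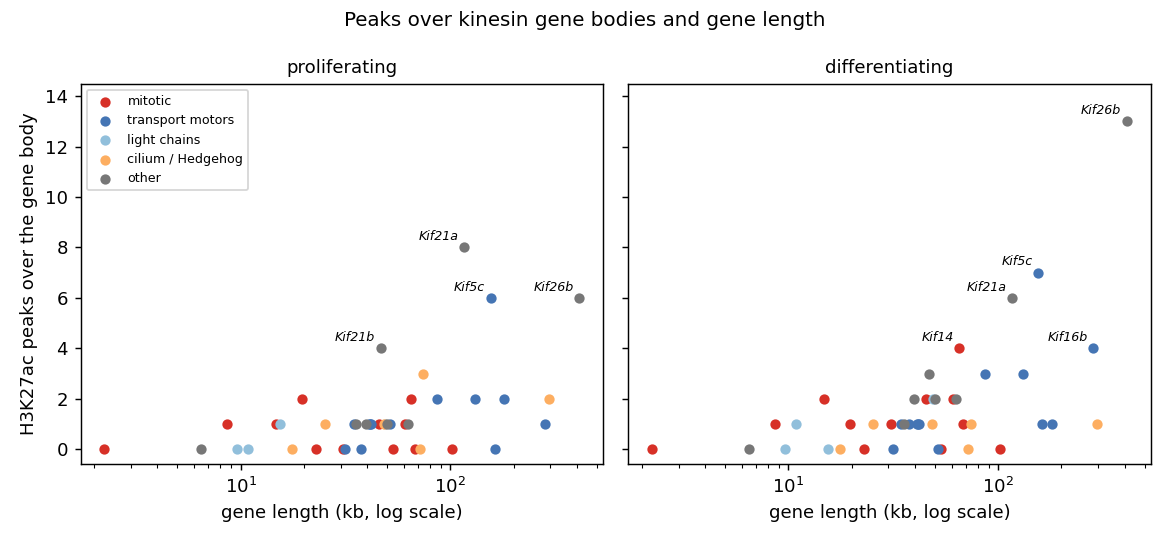
Number of H3K27ac peaks over the gene body (vertical axis) against gene length in kb (horizontal axis, log scale) for the 43 kinesin genes in proliferating (left) and differentiating (right) cells, coloured by role. The highest number is 13, at Kif26b in differentiating cells, while Kif16b, also long, carries 1 and 4.

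On chromosomes 1, 10 and 15 promoter peaks were more frequent over all genes than elsewhere, and the part of this in the kinesin counts was not tested. On them 6 of 8 kinesin genes (75%) had a promoter peak, against 48.5% of all genes there. On the other chromosomes 18 of 35 (51.4%) had one, against 31.5% of all genes. A body peak in either list was held by 8 of 8 kinesin genes on chromosomes 1, 10 and 15, against 2275 of 3014 genes there. Elsewhere it was held by 26 of 35, against 9246 of 18937. On these 3 chromosomes lay Kif14, Kif1a, Kif1bp, Kif21a, Kif21b, Kif26b, Kif28 and Kif5a, which include 4 of the 5 genes with the most body peaks.

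Kinesins outside the naming rule were examined too. Of Kifc1, Kifc2, Kifc3, Kifc5b, Cenpe and Kifap3, which include the minus-end motors and the adaptor of kinesin-2, 1 of 6 (Kifc5b) had a promoter peak, in both lists, against 33.8 percent of all genes in either list. Within 1000 bp on both sides of the TSS 4 of 6 (Kifc5b, Kifc1, Cenpe and Kifap3) had a peak in either list, against 36.4 percent. Of 24 genes of dynein and dynactin, the motor of the opposite direction, 10 had a promoter peak in proliferating cells, 13 in differentiating cells and 14 in either, against 23.7, 27.7 and 33.8 percent of all genes, and Dctn1, Dctn2 and Pafah1b1 were among the 9 in both. Of 13 adaptors that tie kinesins to cargo, 6, 7 and 9 had one, against the same shares of all genes, and Rhot1, Rhot2 and Trak2, which link motors to mitochondria, were in both lists.

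The markers of the cell line were partly marked. Olig1, Olig2 and Sox10, transcription factors of the oligodendrocyte lineage, had promoter peaks in both lists, while Pdgfra, Cspg4, Nkx2-2, Cnp and Mbp had none in the promoter region. Cnp and Cspg4 had a peak within 1000 bp of the TSS in both lists, and all 5 of these genes had peaks over the gene body in both. None of 4 astrocyte and 4 microglia markers had a promoter peak, and of 4 neuron markers only Syt1 had one, in differentiating cells.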

How the data were processed

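H3K27ac ChIP-seq of Oli-neu cells was analysed in 2 states with 1 library each; the study's 6 ATAC-seq samples, 3 transfected with siCtrl and 3 with siPadi2, are not analysed here. Per the submitters' processing notes and methods, the authors mapped reads to GRCm38/mm10 with Bowtie2 2.1.0, removed duplicates and called broad peaks with MACS2 2.0.10. SAMtools and bedtools are named too, and an input library is not given in the sources used here. The authors deposited 1 list per state, of 28924 (proliferating) and 27965 (differentiating) peaks, giving the coordinates of each peak and a cell of text. Without a header, the 3 values in this cell were taken, in the order of MACS output, as the authors' fold enrichment, −log10 p-value and −log10 q-value. The lowest −log10 q was 1.00 and 1.01. Read counts per peak were not used here, so depth per peak is unknown.

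Peaks were matched by any shared base to promoter regions and gene bodies of GENCODE M21 on the same build, with Python 3.11.15, numpy 2.4.6, pandas 2.3.3, scipy 1.17.1 and matplotlib 3.10.9. On simulated peaks, 100% of 200 planted genes were recovered in each list over 21951 genes. RefSeq promoter windows (GRCm38.p6) matched 35 of 43 members, Kif1bp as Kifbp. There was no entry for Kif5a, Kif5b, Kif13b, Kif19a, Kif20a, Kif21b, Kif28 and Klc2. Intervals are exact (Clopper-Pearson).

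Named genes were members with a promoter peak or a peak starting within 3000 bp of the TSS, the 5 with the most body peaks and the light chains. Other members and pathway genes were named without values after these were seen, to account for each count. For 1 marker gene the values are not reported here. The members and lists were chosen with earlier results of these data known. The short sites and the 30-base window were chosen after their values were seen. Alternatives were other promoter regions, start sites, peak thresholds, overlaps, equal numbers of peaks, nearest genes, gene lists and bodies without the promoter region. In the last of these a promoter peak that ran on into the gene still counted, so it could not separate promoter from body peaks.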

Additional observations from a re-analysis of the deposited data

How the results depend on the processing

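With 1 library per state no result was tested, and no replicate could be left out. No paired analysis was possible because each state had a single library and no result came from a test. The number of kinesin genes with a promoter peak was most sensitive to peak strength and overlap. With a −log10 q of at least 5, 3 of 24 were left in either list, 1 of 14 in proliferating and 2 of 20 in differentiating cells, with 1 of 7 mitotic and 2 of 10 transport genes, and 3 of 34 with a body peak. Kinesin genes then had 6.98% in either list, against 5.81% of all genes. By list the shares were 2.33% against 3.27% in proliferating and 4.65% against 4.25% in differentiating cells. With at least 0.5 of the peak inside the region, 15 (34.9%) were left in either list, against 21.9% of all genes. There were 9 (20.9%) in proliferating and 10 (23.3%) in differentiating cells, against 13.9 and 15.6% of all genes. In either list they included 4 of 17 transport and 6 of 12 mitotic genes. Peaks nearest to the own TSS left 9 in proliferating cells (20.9%, against 20.2% of all genes). Peaks at or above the median fold of their list left 13 in differentiating cells (30.2%, against 20.4% of all genes). The other 41 recomputed counts of these results stayed within 1.5 times. Of the recomputed values for subgroups and single genes, 79 moved and 227 did not. A limit on q of 0.05, added after seeing the data, left 22 of 24 in either list and took out Kif24 and Kif1bp. The share was then 51.2%, against 33.2% of all genes.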
